A study of Sus scrofa with 14 samples.

Results

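The genes for dietary fat uptake and lipoprotein assembly in the enterocyte were FABP1, FABP2, APOA1, APOA4, APOC3, MTTP and CD36. A probe belonged to them when the RefSeq accession in the scanner files named one of these 7 genes. This gave 16 probes, out of 43603 probes on the array, of which 6686 could be named in this way for 3020 genes. No further probe was added through the names that the study itself gave. Expression was measured in mucosal scrapings of jejunum from male piglets of 5 weeks and 8.2 kg, in the SISP technique, in which isolated segments with intact blood supply are perfused in the anaesthetised animal. Each piglet gave one segment perfused for 6 h with the control, a saline digest (Sd), and an adjacent one perfused for 6 h with an onion digest. The digest was of yellow onion (YOd) in pigs 1, 2 and 4 and of white onion (WOd) in pigs 5, 6, 7 and 8. All segments received digestive enzymes and bile salts with the digest, but not at the same concentration. Onion digests were diluted in peptone and Sd was diluted further, in saline, so Sd segments received enzymes and bile salts at a lower concentration. Onion, diluent and the amount of enzymes and bile salts therefore cannot be told apart. The position of a segment along the intestine is not in the labels.

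Fatty acids and monoglycerides from the meal enter the enterocyte partly through membrane proteins such as CD36, and are carried in the cytosol by the fatty acid-binding proteins FABP1 and FABP2. After they have been built into triglyceride again, the microsomal triglyceride transfer protein MTTP loads this fat onto apolipoprotein B in the endoplasmic reticulum. APOA1, APOA4 and APOC3 are apolipoproteins that leave the cell on the chylomicron or on high density lipoprotein. APOA4, APOC3 and APOA1 are direct neighbours in the Sscrofa11.1 annotation of the pig genome. The differentiated villus enterocyte makes most of these mRNAs in very large amounts.

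The 14 arrays covered 1 segment each. They lay on 5 slides that were scanned in 2 sessions, and between 546 and 964 probes per array were saturated. Of 11 listed enterocyte markers, 5 had a named probe. ANPEP, DPP4 and SLC5A1 were saturated on all arrays, EPCAM on 12 and the remaining marker on none. Pigs 2 and 7 had their Sd array on the slide of the second session and their onion array on a slide of the first. The distal intestinal genes SLC10A2 and FABP6 stood apart in pig 6, where their summed signal in the Sd segment was 91.2 times the 75th percentile of the array, against 3.01 in the WOd segment. In the other Sd segments this sum lay between 0.314 and 13.4. Most of the difference within pig 6 was FABP6, as SLC10A2 was at a log2 level of 1.24 with Sd and 0.73 with WOd. Genes and samples are described on a log2 scale, on which 0 is the 75th percentile of an array.

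**Figure D1:**
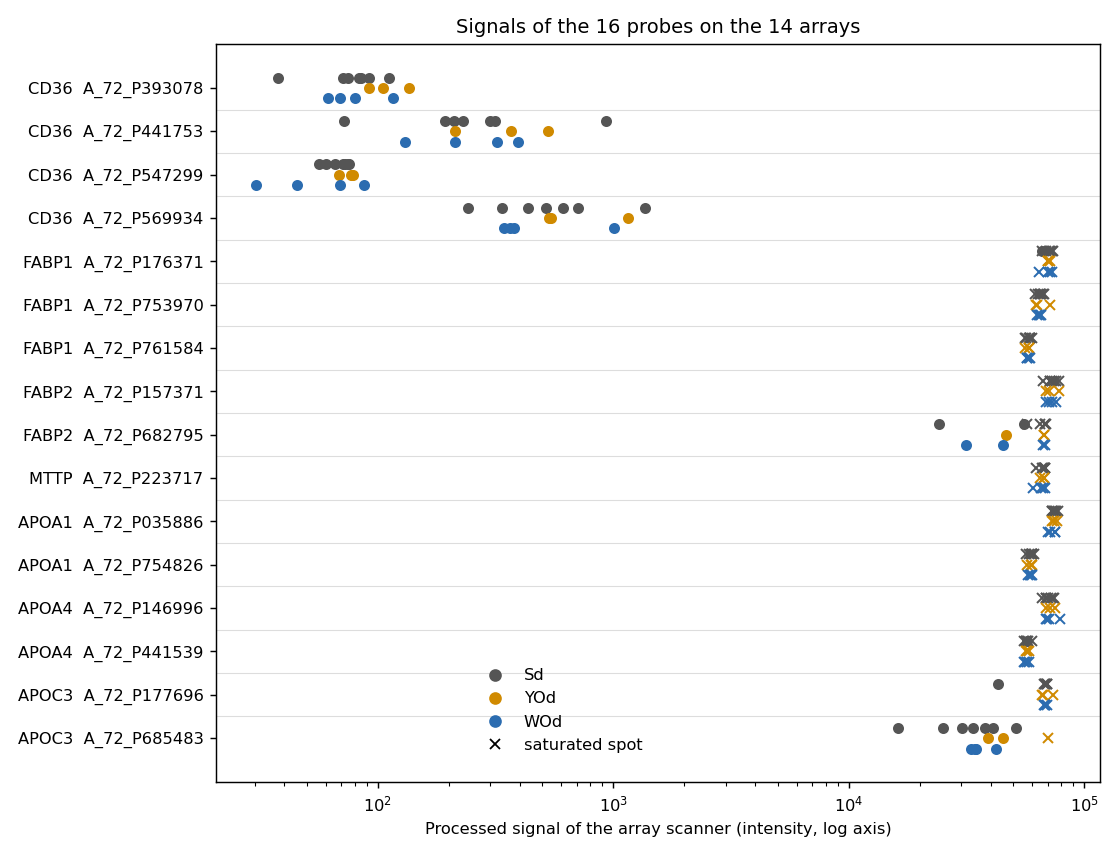
Processed signal (intensity, log axis) of the 16 probes on the 14 arrays, with 1 point per array coloured by the perfused digest and crosses for saturated spots. The probes of FABP1, MTTP, APOA1 and APOA4 lie at the ceiling of the scanner and the CD36 probes far from it. The second probe of FABP2 lies under the ceiling on 5 arrays and that of APOC3 on 13.

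The transcripts of fat binding and lipoprotein assembly exceeded the range of the scanner. In total, 7 of the 16 probes were saturated on all 14 arrays, against 1.04% of all probes. They represented FABP1, FABP2, APOA1, APOA4 and MTTP. Among the brightest probes of all named genes, 2.62% were saturated on all 14 arrays, and 4 of the 7 genes described here were among them. Another 3 probes, of FABP1, APOA4 and APOC3, were saturated on 13 arrays. A saturated spot shows only that the level is at or above the ceiling, so levels of the same gene in onion and Sd segments cannot be compared on it.

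FABP1, the liver-type binding protein that also serves the proximal intestine, was saturated with all 3 probes in 13 of the 14 segments. The exception was the Sd segment of pig 5, in which 1 probe, A_72_P176371, had a median pixel value of 63057 and the other 2 probes were saturated. The WOd segment of the same pig was saturated, which set the ratio at 1.03-fold or more after scaling. For FABP1, the other pairs gave no ratio.

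FABP2, the intestinal binding protein, was saturated on all arrays with the probe A_72_P157371 and on 9 of 14 with A_72_P682795. With the latter probe, pig 1 gave signals of 55309 in Sd and 46518 in YOd. Pig 5 gave 24111 in Sd and 31345 in WOd. The direction thus differed between the only pairs that were measured on both sides. After scaling, the log2 ratios were -0.07 in pig 1 and 0.29 in pig 5. In pig 7 the Sd spot was saturated and the WOd spot was not, at 45157, so that WOd was at most 0.701 of Sd after scaling. The remaining 4 pairs were saturated on both sides.

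MTTP, the transfer protein needed to start a chylomicron, had 1 probe, which was saturated in every segment. APOA1, the main protein of high density lipoprotein, was saturated with both probes in every segment. APOA4, an apolipoprotein made mostly by the intestine, was saturated with the probe A_72_P146996 in every segment. Its other probe, A_72_P441539, was saturated in every segment except the Sd segment of pig 2, where the median pixel value of 65430.5 was just under the ceiling. None of these 3 genes therefore had a fold change for onion over Sd.

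APOC3, an inhibitor of lipoprotein lipase, was the only apolipoprotein among them with a probe inside the scanner range. The brighter probe, A_72_P177696, was saturated on 13 arrays. It was not saturated in the Sd segment of pig 5, with a signal of 43194, while the WOd segment of that pig was saturated. This pair gave a ratio of at least 1.48-fold after scaling. The other probe, A_72_P685483, was saturated only in the YOd segment of pig 1.

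With the probe A_72_P685483, the log2 levels of APOC3 after Sd were 6.83, 5.94 and 5.25 in pigs 1, 2 and 4 and 5.40, 5.68, 5.85 and 6.04 in pigs 5, 6, 7 and 8. After YOd they were at least 7.46 for pig 1, whose spot was saturated, and 6.10 and 6.45 for pigs 2 and 4. After WOd they were 6.34, 6.38, 5.97 and 5.96 in pigs 5, 6, 7 and 8. The level was higher with onion than with Sd in all 3 YOd pigs and in 3 of the 4 WOd pigs, yet the ranges of the groups overlapped. As a background, 9.69% of 20125 comparable probes were higher with onion in at least 6 of the 7 pigs.

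The APOC3 ratio of YOd over Sd was at least 1.55-fold in pig 1, 1.12-fold in pig 2 and 2.30-fold in pig 4. For WOd over Sd it was 1.91-fold, 1.63-fold, 1.09-fold and 0.952-fold in pigs 5, 6, 7 and 8. The large ratios came from pigs 4, 5 and 6 and those near 1 from pigs 2, 7 and 8. Part of the ratio of pig 4 was the scaling of its arrays, as the ratio of the unscaled signals was 1.49-fold. In pigs 5 and 6 the unscaled ratios were 2.03-fold and 1.68-fold.

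With the brightest probe per gene, as the study's methods prescribe, none of the 7 genes passed both thresholds of the study, an unadjusted p under 0.05 in limma and a change over 1.5-fold, in any of the 4 comparisons. In YOd/Sd, 4.53% of 2449 genes passed, in WOd/Sd 1.19% of 2429, in onion/Sd over the 7 pigs 1.25% of 2400, and in the difference between the onion effects (YOd/Sd minus WOd/Sd) 3.52% of 2497. For 6 of the 7 genes, however, this was a probe saturated on 13 or 14 arrays. With the probe saturated on the fewest arrays instead, a choice made after the data had been seen, APOC3 was past both thresholds in YOd/Sd, where 4.58% of genes passed (log2 fold change 0.66 ± 0.22 SE, n = 3 pigs, limma adjusted p = 0.406). The fit takes the saturated spot of pig 1 as measured. Values after ± are standard errors of the fit unless SD is written. For WOd/Sd the difference was 0.42 ± 0.21 (n = 4 pigs, limma adjusted p = 0.999). Over all 7 pigs APOC3 was 0.53 ± 0.16 higher with onion (limma adjusted p = 0.653), which is 1.44-fold and under the fold threshold. The difference between the onion effects was 0.24, with a 95% confidence interval from -0.51 to 1.00.

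The APOC3 difference in YOd/Sd depended on pig 4 and on the scaling. It was 0.40 without pig 4 and 0.36 without scaling of the arrays, and passed in neither case, nor with quantile normalization (0.51) or without the filter on dim genes (0.66). Without pig 1, the pig with the saturated spot, it was 0.68 and did not pass either. Without pig 2, whose arrays came from different scan sessions, it was 0.92 and passed. In WOd/Sd, APOC3 passed only when pig 8 was left out, at 0.59. Over the 7 pigs it passed without pig 2 at 0.59, without pig 7 at 0.59 and without pig 8 at 0.62. With the slide as a block it passed at 0.68. That block takes out the pairs of pigs 2 and 7, whose arrays lay on different slides.

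**Figure D2:**
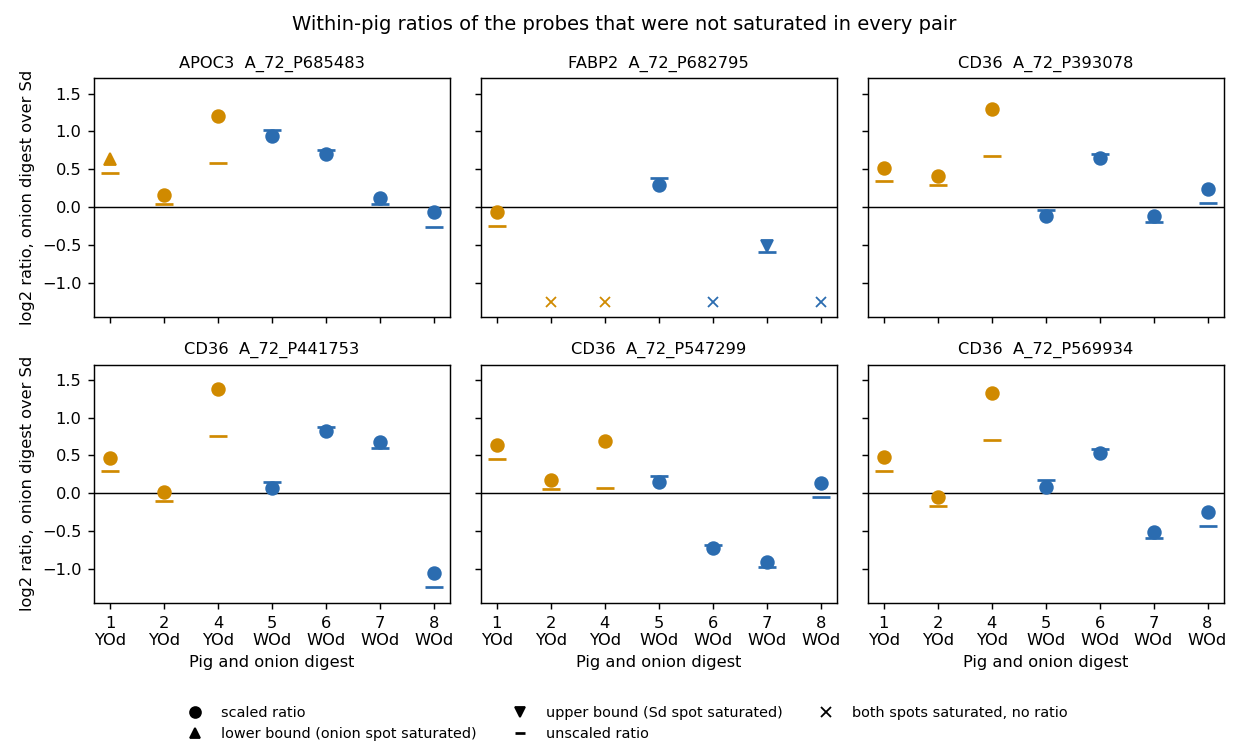
Log2 ratio of onion digest over Sd within each pig for the second probes of APOC3 and FABP2 and the 4 probes of CD36, in gold for YOd and blue for WOd. Dots are ratios of scaled signals, triangles bounds set by a saturated spot, short bars ratios of unscaled signals, and crosses pairs without a ratio. APOC3 lies above 0 in every pig except pig 8, and the CD36 probes differ from each other in pigs 6, 7 and 8.

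CD36, a fatty acid translocase of the brush border that also occurs in macrophages, platelets, capillary endothelium and fat cells, was measured in all segments without saturation. Its 4 probes stood well above background everywhere, apart from A_72_P547299 in the WOd segment of pig 7. The log2 levels of the brightest probe, A_72_P569934, in the Sd segments were -0.05, -0.02 and -0.17 in pigs 1, 2 and 4 and -0.20, -1.02, -0.19 and 1.13 in pigs 5, 6, 7 and 8. With YOd they were 0.43, -0.07 and 1.16 in pigs 1, 2 and 4. With WOd they were -0.12, -0.48, -0.70 and 0.89 in pigs 5, 6, 7 and 8. Sd segments differed 4.42-fold between the lowest, pig 6, and the highest, pig 8, and groups overlapped. Pig 6 was the pig with the distal genes SLC10A2 and FABP6 in its Sd segment, and the part of these in the level of CD36 was not tested.

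On average, the CD36 level was 0.51 ± 0.62 (SD, n = 3) with YOd against -0.08 ± 0.08 in the Sd segments of the same pigs, and -0.10 ± 0.70 (SD, n = 4) with WOd against -0.07 ± 0.89. Within pigs, YOd over Sd was 1.40-fold in pig 1, 0.964-fold in pig 2 and 2.51-fold in pig 4. WOd over Sd was 1.06-fold, 1.45-fold, 0.701-fold and 0.845-fold in pigs 5, 6, 7 and 8. CD36 did not pass the thresholds in YOd/Sd, with a log2 fold change of 0.59 ± 0.26 SE (limma adjusted p = 0.386). In WOd/Sd it was -0.03 ± 0.20 and in onion/Sd 0.23 ± 0.20. The difference between the onion effects was 0.62, with a 95% confidence interval from -0.21 to 1.45 (limma adjusted p = 0.852). Leaving out pig 2 raised the YOd/Sd difference of CD36 past the thresholds to 0.91 (limma adjusted p = 0.0879), where 13.2% of all genes passed, and the difference between the onion effects to 0.94, where 6.01% passed. Leaving out pig 4 lowered them to 0.21 and 0.25, and leaving out the scaling lowered the first to 0.28. Pigs 1 and 4 were the YOd pairs with both arrays from the first scan session, so the value without pig 2 is that within this session. The slide as a block gave the same 0.91, where 13.3% of all genes passed. Among the YOd pigs only pig 2 had its arrays on different slides. This block therefore takes out the pair of pig 2 and is no separate check.

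The other CD36 probes gave values on the same side for YOd and on both sides for WOd. In YOd/Sd, the difference was 0.75 ± 0.21 with A_72_P393078 (limma adjusted p = 0.414), 0.62 ± 0.26 with A_72_P441753 and 0.50 ± 0.17 with A_72_P547299. Only the first passed both thresholds, in a fit of every probe in which 4.96% of 26267 passed. After scaling, all 3 of these other probes were higher with YOd in each of the 3 pigs, as were 23.7% of all comparable probes. For A_72_P441753 in pig 2 this rested on the scaling, as the signals were 213 with YOd and 229 with Sd. In WOd/Sd, the difference was 0.16 with A_72_P393078, 0.13 with A_72_P441753 and -0.34 with A_72_P547299, none past the thresholds. The probes went apart in single pigs. In pig 7 the log2 ratio of WOd over Sd was 0.68 with A_72_P441753 and -0.51 with A_72_P569934, and in pig 8 it was -1.05 with A_72_P441753 and 0.24 with A_72_P393078. In A_72_P441753 the Sd segment of pig 8 stood high, at a log2 level of 0.58, where the other Sd segments lay between -2.77 and -0.58. The difference between the onion effects passed only with A_72_P547299 (0.84 ± 0.32, limma adjusted p = 0.743), the probe that was not well above background in 1 WOd segment, and 5.67% of 27685 probes passed there.

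Since scrapings hold several cell types, a change in the number of cells with CD36 and a change in CD36 mRNA per cell cannot be told apart. Endothelial markers were measured with 3 of 5 listed genes (PECAM1, VWF and CDH5). Their summed scaled signal was higher with YOd than with Sd in each pig. It was 7.22 against 4.76 in pig 1, 7.77 against 7.71 in pig 2 and 5.70 against 4.45 in pig 4. The 75th percentile was lower on the YOd array, at 568 against 618 in pig 2 and 515 against 795 in pig 4. In pigs 2 and 4 the direction of this sum therefore rested on the scaling. All 3 endothelial markers were above 0 in YOd/Sd, with a median log2 fold change of 0.32, against 0.14 for all genes. Of the macrophage markers, 3 of 5 were measured (CD14, CD163 and AIF1). With YOd their sum was 21.9 against 16.9 with Sd in pig 1 and 24.1 against 18.4 in pig 4. It was lower in pig 2, at 32.3 against 34.1, and the direction in pig 4 again rested on the scaling. All 3 were above 0 in YOd/Sd, with a median of 0.22. Lymphocyte markers were above 0 for 5 of 6 tested there, with a median of 0.28. Of the adipocyte markers, 4 of 5 had a probe and PLIN1 was at the floor on all arrays. Their sum was lower with YOd in each pig, at 0.385 against 0.683 in pig 1, 0.834 against 0.928 in pig 2 and 0.546 against 1.44 in pig 4. Most of this sum was LPL, which fell past the thresholds with YOd. The 2 adipocyte markers tested in YOd/Sd, LPL among them, were both under 0. FABP4, a gene of fat cells, macrophages and capillary endothelium outside this list, rose past the thresholds. None of the endothelial or macrophage markers passed the thresholds in YOd/Sd or WOd/Sd, with CDH5 at 0.50 ± 0.15 in YOd/Sd (limma adjusted p = 0.386). The part of these cells in the CD36 values was not tested.

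The 5 named genes with within-pig ratios nearest to those of CD36 over the 7 pigs were TF, AQP7, ABCG2, CD302 and PGRMC2. TF encodes transferrin, AQP7 a channel for water and glycerol, and ABCG2 an efflux transporter. Their root mean square difference from CD36 was between 0.253 and 0.289 in log2 units. The median was 0.630 over 1965 genes measured above the floor on all arrays without saturation. As the 5 were picked as the nearest, their place under this median was set in advance. A gene without any change would lie at 0.612. The points share their 7 pigs and the scaling of their 14 arrays.

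Saturated probes still receive a ratio when the arrays are scaled. For MTTP, the unscaled signals in pig 4 were 64663 with YOd and 62479 with Sd, both at the ceiling, while the scaled ratio was 1.60-fold. The 75th percentile of the arrays of pig 4 was 515 with YOd and 795 with Sd, so the scaling alone added 0.62 on the log2 scale. In pig 4 the 11 probes saturated on both arrays had scaled log2 ratios between 0.55 and 0.86 and unscaled ones between -0.08 and 0.23. In the log2 values that the authors deposited, the median ratio of these probes in pig 4 was 0.55. In the other pigs the median scaled ratio lay between -0.10 and 0.18 and followed the ratio of the percentiles. Ratios of this kind say nothing of a change. No fold change over the pigs is therefore given for FABP1, FABP2, APOA1, APOA4 or MTTP in any comparison, nor a median over the 7 genes. Ratios or bounds of single pairs with an unsaturated spot are given above for FABP1 and FABP2.

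**Figure D3:**
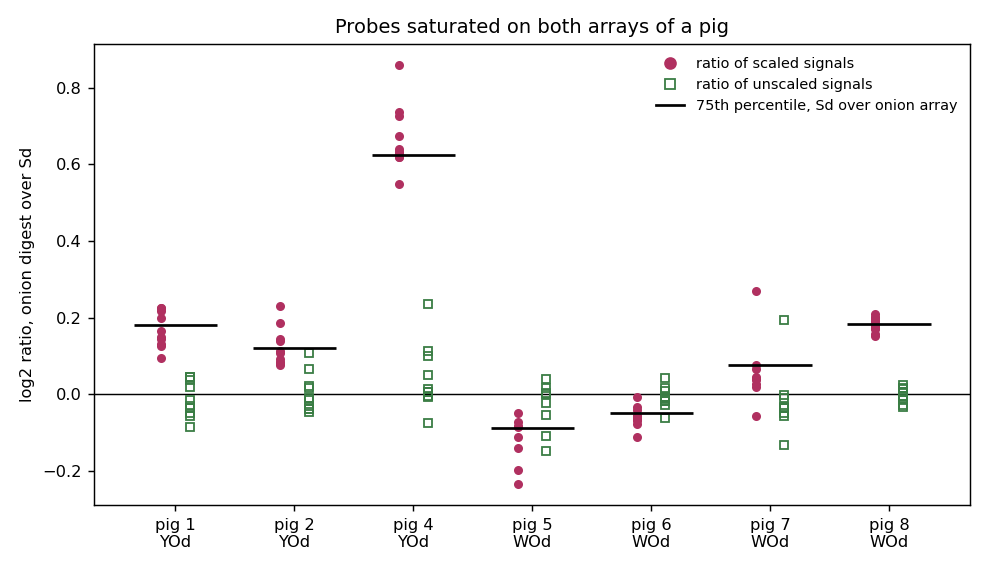
Log2 ratio of onion digest over Sd for each probe saturated on both arrays of a pig, after scaling (filled) and without it (open squares), with the log2 ratio of the 75th percentiles of the arrays as a line. The scaled ratios lie around the line, highest in pig 4 at a median of 0.63, while the unscaled ratios lie around 0.

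The other genes of lipid handling, in 7 lists, held 87 entries, of which 55 had a named probe. In YOd/Sd, 6 of 54 tested genes rose and none fell, where 3.59% of all genes tested passed upwards and 0.939% downwards. LPL, which stood in the adipocyte list and in none of these 7, fell past both thresholds in YOd/Sd. In WOd/Sd none of 53 passed, against 1.19% of all genes. In onion/Sd 3 of 53 rose, against 0.958%. The median log2 fold change of the 54 genes was 0.16 in YOd/Sd, against 0.14 for all genes tested, and in WOd/Sd it was 0.10 against 0.05. Without scaling of the arrays, the median of all genes in YOd/Sd moved from 0.14 to -0.16, so the level against which a YOd/Sd change is read depends on the scaling. Of the 6 genes that rose, SCARB1 still passed without scaling, at 0.60 with a largely saturated probe, and ABHD5 (0.45), FABP4 (0.45), APOA2 (0.39), DGAT2 (0.49) and PDK4 (0.28) did not. Of the genes named next, SCARB1, DGAT2, APOA2 and APOM also stand in a list that the study chose on these samples, so their direction is not independent evidence.

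Among sterol transport genes, SCARB1, a receptor for high density lipoprotein that sits in the enterocyte membrane, rose with YOd, and NPC1, the other gene tested, was at 0.05. The brightest probe was saturated in all 3 YOd segments and in the Sd segment of pig 2, and in both segments of pig 8, so that pigs 2 and 8 gave no ratio with it. In the other YOd pigs, YOd was at least 2.31-fold higher than Sd in pig 1 and at least 2.55-fold in pig 4. WOd over Sd was 2.04-fold, 1.60-fold and 0.880-fold in pigs 5, 6 and 7. SCARB1 was thus higher with onion in 4 of the 5 pairs with a ratio. The fit takes saturated spots as measured and gave 0.91 ± 0.25 in YOd/Sd (limma adjusted p = 0.386), 0.42 in WOd/Sd, not past the thresholds, and 0.63 ± 0.19 in onion/Sd (limma adjusted p = 0.610). The YOd/Sd difference was 0.69 and not past the thresholds without pig 4. The onion/Sd difference did not pass without pig 1 (0.53), pig 4 (0.51) or pig 5 (0.56). With A_72_P642167, the brightest SCARB1 probe without a saturated spot, the log2 levels were 3.06, 2.68 and 3.13 with YOd in pigs 1, 2 and 4, against 1.78, 2.69 and 1.48 with Sd. With WOd they were 1.98, 0.66, 1.62 and 3.39 in pigs 5, 6, 7 and 8, against 1.42, -0.33, 1.94 and 3.0. This probe was higher with onion in 5 of 7 pigs and also passed in YOd/Sd, at 0.97 ± 0.32 (limma adjusted p = 0.419), and in onion/Sd, at 0.65 ± 0.22 (limma adjusted p = 0.674).

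In triglyceride resynthesis, 1 of 8 genes rose. DGAT2, which adds the last fatty acid to triglyceride, stood at log2 levels of 3.0, 0.79 and 2.63 with YOd in pigs 1, 2 and 4, against 2.10, 0.95 and 0.97 with Sd. With WOd it stood at 1.52, 1.35, 1.25 and 2.17 in pigs 5, 6, 7 and 8, against 0.80, -0.17, 1.56 and 1.48. It was higher with onion in 5 of 7 pigs and lower in pigs 2 and 7, by 0.72 ± 0.23 in all (limma adjusted p = 0.610) and by 0.80 ± 0.32 in YOd/Sd (limma adjusted p = 0.386). The YOd/Sd difference did not pass without pig 1 (0.75) or pig 4 (0.37) and was 1.28 without pig 2. The onion/Sd difference did not pass without pig 4 (0.56) or pig 6 (0.58). DGAT1, the other enzyme of this step, was at 0.18 in YOd/Sd and 0.14 in WOd/Sd.

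Of 8 other apolipoprotein and chylomicron genes, APOA2 passed in YOd/Sd and APOM in onion/Sd. APOA2, an apolipoprotein of high density lipoprotein, was at 2.03, 0.08 and 0.94 with YOd in pigs 1, 2 and 4, against 0.84, -0.13 and 0.24 with Sd. Its difference was 0.70 ± 0.21 (limma adjusted p = 0.386) and 0.46, not past the thresholds, without pig 1. APOM, a lipocalin that travels on the same particle, was 0.76 ± 0.33 higher with onion (limma adjusted p = 0.652) and higher in 5 of 7 pigs. Without pig 4, in which its log2 ratio was 2.99, the difference was 0.38 and did not pass, as it did not without pigs 1, 5, 6 or 8, at 0.74 to 0.81. SAR1B, a small GTPase that lets the prechylomicron leave the endoplasmic reticulum, was at 0.20 in YOd/Sd and -0.06 in WOd/Sd, and neither passed.

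**Figure D4:**
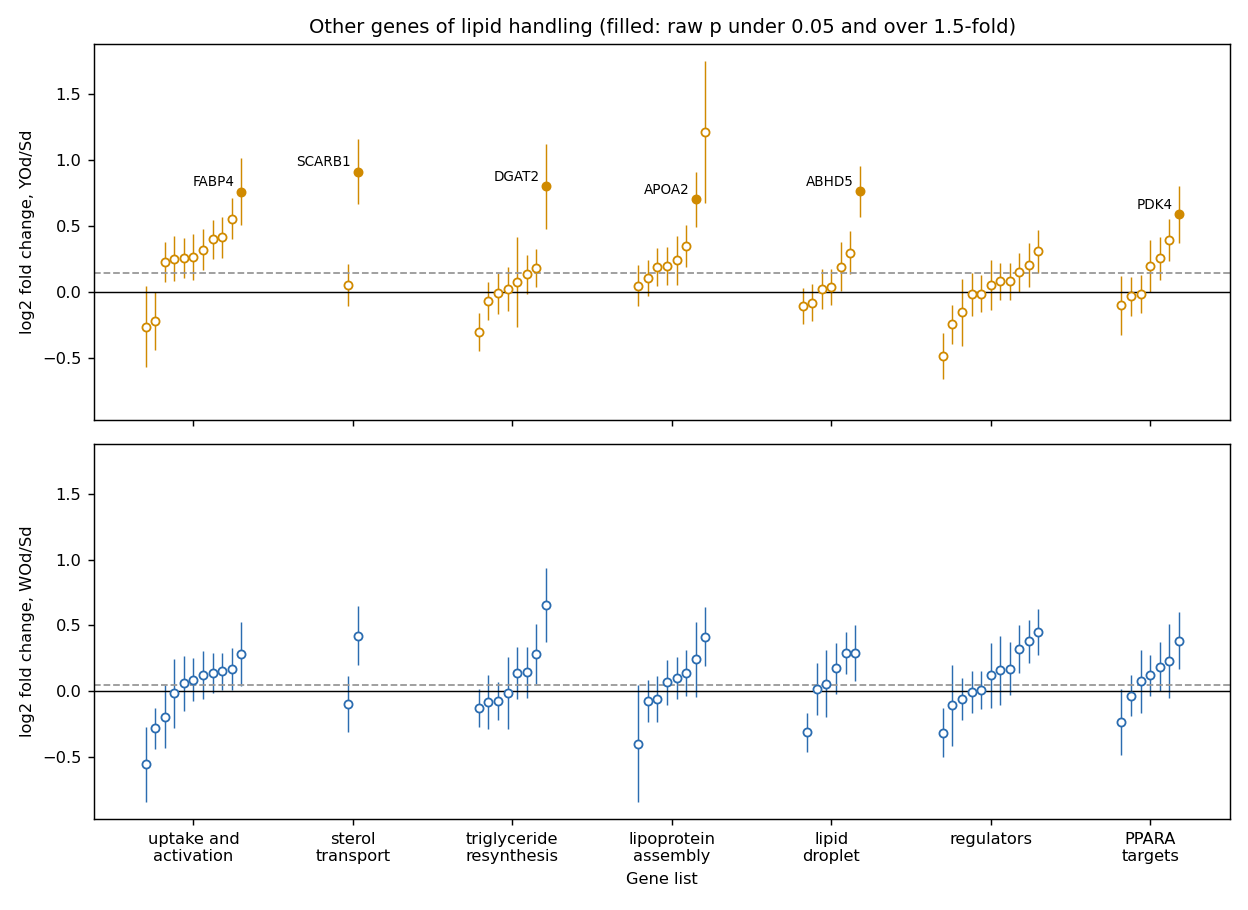
Log2 fold change with its SE for the genes of 7 lists of lipid handling in YOd/Sd (3 pigs, upper) and WOd/Sd (4 pigs, lower), with filled symbols for genes past both thresholds and a dashed line at the median of all genes tested. The 6 genes past both thresholds with YOd are named, and no gene of the lists passed with WOd.

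Among 11 genes of fatty acid uptake, binding and activation, FABP4 rose with YOd. FABP4 is the binding protein of fat cells, macrophages and capillary endothelium. Its log2 levels were -2.13, -2.11 and -1.48 with YOd in pigs 1, 2 and 4, against -3.12, -2.11 and -2.77 with Sd, a difference of 0.76 ± 0.25 (limma adjusted p = 0.386). With WOd it was -0.55, and the onion effects differed by 1.31 ± 0.45 (limma adjusted p = 0.852). ACSL4, which activates arachidonic acid, differed between the onions by 0.83 ± 0.22 (limma adjusted p = 0.852), as its log2 ratios were 0.59, 0.30 and 0.77 with YOd and -0.07, -0.58, -0.36 and -0.10 with WOd. FABP4 was at 0.50 in YOd/Sd without pig 4 and 0.64 without pig 1, past the thresholds in neither, and its difference between the onions did not pass without pig 1 (1.20) or pig 4 (1.05). ACSL4 passed without each of the 7 pigs in turn, but not without scaling, at 0.56. ACSL1, ACSL3 and ACSL5, related enzymes, were at -0.26, 0.25 and 0.32 in YOd/Sd and did not pass in any comparison.

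Of 7 lipid droplet genes tested in YOd/Sd, ABHD5 rose. ABHD5, the coactivator of triglyceride hydrolysis by PNPLA2, was at 4.41, 2.91 and 3.78 with YOd against 3.43, 2.65 and 2.73 with Sd in pigs 1, 2 and 4. It was higher in all 3 pigs, by 0.76 ± 0.20 (limma adjusted p = 0.386), and passed without each of the pigs in turn. PNPLA2 itself was at 0.04. LPL, a lipase on capillaries that APOC3 inhibits and that served as an adipocyte marker here, fell with YOd by 0.88 (SE 0.29, limma adjusted p = 0.386) and was at 0.18 with WOd. Its fall with YOd was 0.45 without pig 4 and did not pass.

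Of the transcription factors and coactivators that drive these genes, none of 11 passed in any comparison. The nuclear receptor PPARA was at 0.15 in YOd/Sd and -0.10 in WOd/Sd, PPARG at 0.20 and 0.38, PPARD at 0.05 and 0.45, and PPARGC1A at -0.49 and -0.31. HNF4A, a main regulator of apolipoprotein genes in the enterocyte, was at 0.08 and 0.32. Of 7 targets of PPARA in fatty acid oxidation, PDK4, a kinase that restrains glucose oxidation, passed in YOd/Sd at 0.59 ± 0.22 (limma adjusted p = 0.386). It rested on pigs 1 and 4, with a log2 ratio of -0.01 in pig 2, and did not pass without pig 1 (0.49) or pig 4 (0.39). It was saturated in the YOd segment of pig 4, and with a probe without saturation, A_72_P388208, it was at 0.54 and did not pass. CPT1A, which brings fatty acids into the mitochondrion, was at 0.26 in YOd/Sd and did not pass.

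Of the remaining marker lists, CCK, a hormone of enteroendocrine cells released by dietary fat, rose with YOd by 0.92 ± 0.27 (limma adjusted p = 0.386), with log2 ratios of 1.55, 0.12 and 1.07 in pigs 1, 2 and 4. It did not pass without pig 1 (0.60) or pig 4 (0.84). SLC10A2, the ileal bile acid transporter, fell by 1.19 (SE 0.44, limma adjusted p = 0.386), and did not pass without pig 4. Its YOd level in pig 4 was at the floor, so this size is not exact, and FABP6, the other distal gene tested, was at 0.23 in YOd/Sd. CD3D, a T cell marker, differed between the onions by 0.69 ± 0.26 (limma adjusted p = 0.852), but not without pig 4 (0.48), pig 6 (0.58) or pig 7 (0.64), and the other marker lists held no gene past the thresholds.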

How the data were processed

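The authors deposited scanner files of 1-colour arrays from Feature Extraction 10.7.3.1, with an intensity per spot (processed signal, background-subtracted and detrended) and flags for saturated, outlier and background spots. They also deposited log2 values of 28369 probes. RMA stands in the submitters' processing notes without a version or role, and the normalization of these log2 values is not given in the sources used here.

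Outlier spots were left out, spots of a probe averaged, signals scaled to the 75th percentile of each array, and values under the pooled 40th percentile (log2 -4.43) raised to it. The brightest probe stood for a gene. Paired fits of YOd/Sd, WOd/Sd, onion/Sd and the difference between the onion effects were made over all named genes in limma 3.58.1 (R 4.3.3). The block was the pig, because the methods pair segments of one piglet. Arrays of a pig also deviated together, with r from 0.469 to 0.803 over 1966 genes. Thresholds were an unadjusted p under 0.05 and a change over 1.5-fold. Benjamini-Hochberg adjustment ran over all genes tested, or all probes where each was counted. At an adjusted p of 0.05, 0 genes passed, and 274, 67, 169 and 103 had an unadjusted p under 0.05 in the order above. Fits were tested on simulated data. The number of arrays limits the precision.

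Symbols came from RefSeq accessions through the Sscrofa11.1 annotation. Members and lists were chosen with earlier results of these data known. Named were the 7 genes with every probe, list genes past both thresholds, otherwise the first 4 of a list, and the 5 genes nearest to CD36, whose ratios varied most, as the brightest probes of the other 6 were saturated on 13 or 14 arrays. HNF4A, NPC1, SAR1B, DGAT1, PNPLA2, CDH5, ACSL1, ACSL3, ACSL5 and CPT1A were added after their values had been seen. Marker lists covered enterocytes, goblet, enteroendocrine and crypt cells, lymphocytes, macrophages, endothelium, smooth muscle, adipocytes, proximal and distal intestine. Alternatives covered the normalization, background correction, floor, filter, probe choice, the authors' values, the block, the slide and each pig. The planned normexp correction used the median signal, as the files hold no mean signal. Pig 3 was not analysed here. Tables and figures were made in Python 3.11.15.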

Additional observations from a re-analysis of the deposited data

Results flagged for a closer look

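CD36 differed between the onions with the probe A_72_P547299, with a YOd/Sd change 0.84 above the WOd/Sd change (limma adjusted p = 0.743). This probe was not well above background in the WOd segment of pig 7, and the brightest CD36 probe gave 0.62 without passing the thresholds.

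The same difference passed the thresholds for FABP4 at 1.31, for ACSL4 at 0.83, for CD3D at 0.69 and for LPL at -1.06, each with a limma adjusted p of 0.852. FABP4 did not pass without pig 1 (1.20) or pig 4 (1.05), CD3D not without pig 4 (0.48), 6 (0.58) or 7 (0.64), and LPL not without pig 1 (-1.12), 4 (-0.63), 6 (-0.97) or 7 (-0.87). Of 2497 genes tested, 3.52% passed.

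APOM in pig 4 was an outlier among the 7 pigs, with a log2 ratio of onion over Sd of 2.99, far above the next pig at 0.85. It was 1 of 62 sets of levels or ratios examined in this way, where chance alone marks about 1 in 20.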

How the results depend on the processing

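No member passed both thresholds in YOd/Sd with the brightest probe, and this count of 0 became 1 with the slide as a block, 1 with the mean over the probes of a gene, 1 with the probe saturated on the fewest arrays (chosen after seeing the data) and 2 with every probe counted. Leaving out single pigs gave 0 to 1, the latter without pig 2, whose pair the slide block in YOd/Sd also takes out. The gene was CD36 in these cases, APOC3 with the least saturated probe, and both with every probe counted. In the difference between the onion effects the count became 1, for CD36, with the mean over probes and with every probe counted, and was 0 to 1 without single pigs, again 1 without pig 2. In WOd/Sd and onion/Sd it was 0 in every alternative run on these probes, although the least saturated APOC3 probe passed with some pigs left out or the slide as a block, as given above. CD36 in WOd/Sd turned from -0.03 to 0.13 with the slide as a block, 0.16 with A_72_P393078 and 0.13 with A_72_P441753. Without single pigs it ranged from -0.22 to 0.13, and was 0.04 without pig 8. The slide block takes out the pair of pig 7 there, so its 0.13 repeats the value without that pig. The APOC3 difference between the onions turned from 0.24 to -0.035 without scaling, and ranged from -0.025, without pig 4, to 0.49 without single pigs. The cause was not tested.

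Without the replicate block, the pairing of the segments by pig, 0 members passed in each comparison, and the APOC3 difference in YOd/Sd, 0.66, no longer passed. Without the block, 20 genes passed in YOd/Sd in place of 111, 10 in WOd/Sd in place of 29, 10 in onion/Sd in place of 30 and 5 in the difference in place of 88. With the slide as a block these counts were 325, 87, 77 and 191, and with the authors' log2 values 63, 14, 19 and 55. The slide block takes the pair of pig 2 out of YOd/Sd and that of pig 7 out of WOd/Sd. It takes both pairs out of the other comparisons. For the list genes past the thresholds, 194 of their values under the alternatives stayed past them and 87 did not, none with a changed direction. At an adjusted p of 0.05, where no gene passed otherwise, 77 genes passed in YOd/Sd without pig 2 and 2 in WOd/Sd without pig 7, and with the slide as a block 113 in YOd/Sd, 2 in WOd/Sd and 14 in onion/Sd, none of them a member. Saturation limits 6 of the 7 members.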
